A study of Mus musculus with 13 samples.

Results

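The 6 genes described here encode proteins that handle iron in the duodenal epithelium. Cybrd1, Slc11a2, Slc40a1 and Heph serve absorption from the gut lumen, Fth1 encodes a ferritin subunit and Tfrc the transferrin receptor. They were chosen by name, as every probe of the array whose symbol is 1 of these genes; the rule uses no measured value, though the genes were picked with earlier results of these data known. They are 6 of the 17896 genes named on the array and held 13 of its 25697 probes, and 12 of the 13 were detected on enough arrays to be tested. The study used 13 Illumina MouseRef-8 v2.0 bead arrays, which read 1 colour, each with total RNA from the proximal small intestine of a male C57BL/6J mouse. The 5 ezetimibe mice (labelled Eze) received chow with 0.005% ezetimibe, a drug that blocks the intestinal cholesterol transporter Npc1l1, and the 8 control mice (labelled Control) received regular chow. The labels call each array a biological replicate. They give no transgene, and they name neither the mice's age nor the length of feeding. The comparison asks whether transcripts of the 6 genes differed between the diets.

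Dietary ferric iron is reduced at the brush border, enters the enterocyte as ferrous iron, and is then either stored in ferritin or exported across the basolateral membrane to be oxidised and loaded onto transferrin. In iron deficiency the reductase and the apical and basolateral transporters are raised by the hypoxia-inducible factor HIF-2. Iron regulatory proteins also bind the transcripts of ferritin, ferroportin, DMT1 and the transferrin receptor, so that protein and transcript levels need not move together.

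By the RefSeq gene table of assembly GRCm38.p6, Cybrd1 lies on chromosome 2 at 71118054 to 71142926, Slc11a2 on chromosome 15 at 100387898 to 100424209 and Slc40a1 on chromosome 1 at 45908070 to 45926532. Heph lies on chromosome X at 96455436 to 96574485, Fth1 on chromosome 19 at 9980600 to 9985111 and Tfrc on chromosome 16 at 32608896 to 32632794. Upstream sequence was at hand for 3 of the 6 genes, Cybrd1, Fth1 and Tfrc. The 250 bases before the annotated starts of Cybrd1 (chr2:71117804-71118053, plus strand) and of the upstream start of Tfrc (chr16:32608646-32608895, plus strand) are shown because these genes had, by their brightest probes, the widest spread between mice of the 6 and are described as HIF targets. They are RefSeq sequence of GRCm38.p6, printed 5′ to 3′, and the capitals mark the core letters GCGTG of a HIF response element on either strand (CACGC where it is on the other strand).
Cybrd1: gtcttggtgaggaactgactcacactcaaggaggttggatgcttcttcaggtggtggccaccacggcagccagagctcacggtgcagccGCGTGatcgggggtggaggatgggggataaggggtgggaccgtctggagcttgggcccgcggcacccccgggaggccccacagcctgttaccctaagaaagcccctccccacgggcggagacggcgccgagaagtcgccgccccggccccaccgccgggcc
Tfrc: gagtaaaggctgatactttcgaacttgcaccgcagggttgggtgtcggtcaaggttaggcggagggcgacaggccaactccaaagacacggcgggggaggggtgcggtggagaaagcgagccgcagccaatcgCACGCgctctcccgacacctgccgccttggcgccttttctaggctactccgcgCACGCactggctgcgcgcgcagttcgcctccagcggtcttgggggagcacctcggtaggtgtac
The Cybrd1 window held 1 such core and the Tfrc window held 2, and neither held the other HIF core, ACGTG. The window of the downstream Tfrc start (chr16:32608872-32609121) held 3 cores, 1 ACGTG and 2 GCGTG. For Fth1, the downstream window (chr19:9982396-9982645) held 1 GCGTG core, the same count as Cybrd1, and the upstream window held no HIF core. At least 1 of the 2 cores was present in 38.6% of the 32851 promoter windows of this length, so a core is a frequent match of a short motif. The Cybrd1 and Tfrc windows were 64.8 to 69.2% GC, against a median of 52.4% over all windows. Windows of like GC were not set beside them. GCGTG was present in 28.16% of windows and ACGTG in 16.57%. None of the 250-base windows of Cybrd1, Fth1 or Tfrc held the antioxidant response core TGACNNNGC, which Fth1 is known to carry in a distal enhancer; it was found in 10.16% of all windows.

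Signals differed between the slides that carried the arrays: the median probe had a linear intensity of 146.9 to 152.8 on slide 1 (2 ezetimibe and 4 control arrays) and of 120.7 to 127.9 on slide 2 (3 ezetimibe and 4 control arrays). The slide was therefore a term in every comparison, and the levels below are slide-adjusted, that is, log2 intensities from which the slide effect of the model was removed. Between 11085 and 12380 probes were detected per array, and the number of arrays limits the precision. The proximal markers Pdx1 and Gata4 were detected on all 13 arrays, and the ileal bile acid binding protein Fabp6 on 1 of 5 ezetimibe and 4 of 8 control arrays. Of the other distal genes, Pyy and Gcg were detected on all 13 arrays, Slc10a2 on 1, and no Nts probe on more than 3. Exocrine pancreas transcripts varied widely, the mean over 11 pancreatic genes lying between 5.94 and 13.13 on the ezetimibe arrays and between 5.70 and 12.05 on the control arrays.

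No probe of the 6 genes passed the threshold between the diets (limma, Benjamini-Hochberg adjusted p under 0.10 over the 11887 tested probes). Across the array 30 probes passed, which is 0.252% of those tested, so a count of 0 among 12 probes is near that background. At an unadjusted p under 0.05, 1 of the 12 was counted, a dim probe of Heph (ILMN_2743476), against 735 of all tested probes (6.18%). In this bulk tissue, fewer cells of a type and less RNA per cell cannot be told apart.

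**Figure D1:**
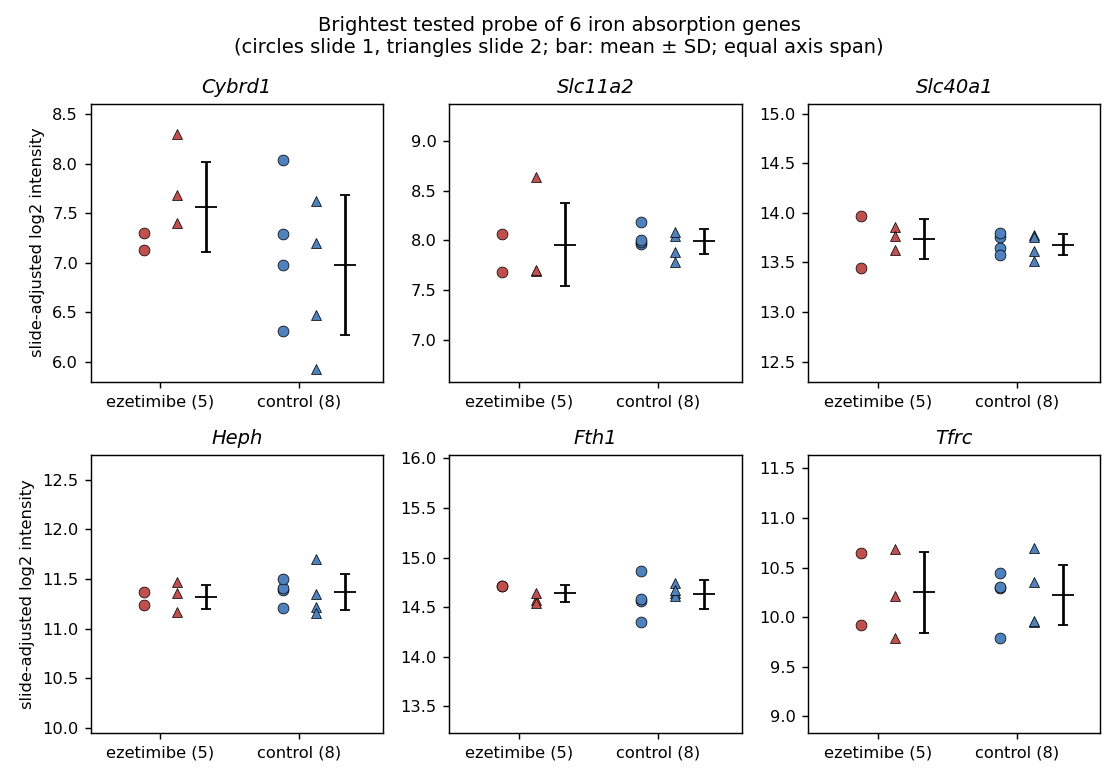
Slide-adjusted log2 intensity of the brightest tested probe of each gene on each of the 5 ezetimibe arrays (red) and 8 control arrays (blue), with circles for slide 1, triangles for slide 2 and bars for the mean ± SD; each panel spans the same log2 distance. The groups overlapped in all 6 panels, and Cybrd1 had the widest spread, 2.36 log2 units over the 13 arrays.

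Cybrd1, the brush-border ferric reductase also known as duodenal cytochrome b, had the largest difference of the 6 genes. Its brighter probe (ILMN_2825562) had log2 intensities of 7.30, 7.13, 8.29, 7.68 and 7.41 on the 5 ezetimibe arrays, against a lowest value of 5.93, a median of 7.09 and a highest value of 8.03 on the control arrays. All 5 ezetimibe values were above the control median, yet only 1 was above the highest control. The means were 7.56 ± 0.45 in ezetimibe mice (SD, n = 5) and 6.98 ± 0.70 in control mice (SD, n = 8). The fitted difference was 0.58 ± 0.31 (SE) on the log2 scale, or 1.50-fold with a 95% interval of 0.948 to 2.37, and did not pass the threshold (adjusted p = 0.838, limma). On slide 1 alone it was 0.07 ± 0.38 and on slide 2 alone 0.99 ± 0.37, and the difference between the slides did not pass either (interaction term, adjusted p = 1.0 in limma). On slide 1 the control arrays lay at positions A to D and the ezetimibe arrays at E and G. With position as a further term it was 1.10 (adjusted p = 0.288), and it was 0.10 when arrays were blocked by replicate number. Before background correction the probe's linear intensity ran from 139.7 to 450.0, so its lowest value lay close to the median probe of its array. Without background correction the difference was 0.32 ± 0.17 (SE), and with normexp at an offset of 50 it was 0.42 ± 0.23. The deposited processed values with a slide term gave 0.17 ± 0.10. The size of the difference therefore depended on the processing, including the background step. The dim Cybrd1 probe (ILMN_2525111) was detected on 1 ezetimibe and 3 control arrays and was not tested.

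Slc11a2, the apical ferrous iron transporter DMT1, was nearly level between the diets, with a wider spread among the ezetimibe mice. Its single probe (ILMN_2665063) read 7.68, 8.06, 8.64, 7.69 and 7.70 on the ezetimibe arrays, against 7.78 to 8.19 with a median of 7.99 on the control arrays. Of the 5 ezetimibe arrays, 3 were below all controls of their own slide and 1, at 8.64, was above every control array. The means were 7.96 ± 0.42 in ezetimibe mice (SD, n = 5) and 7.99 ± 0.12 in control mice (SD, n = 8), with a difference of -0.04 ± 0.15 (SE), a 95% interval of -0.35 to 0.28 and an adjusted p of 0.983 in limma. The sign of this difference turned under several other settings.

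Slc40a1, the basolateral exporter ferroportin, had values of 13.45, 13.97, 13.86, 13.77 and 13.63 on the ezetimibe arrays (ILMN_2747923), against 13.51 to 13.80 with a median of 13.70 on the control arrays. The groups overlapped, with the lowest and the highest value of all 13 arrays both from ezetimibe mice. The means were 13.73 ± 0.20 in ezetimibe mice (SD, n = 5) and 13.68 ± 0.11 in control mice (SD, n = 8), and the difference of 0.05 ± 0.08 (SE) had a 95% interval of -0.12 to 0.23 (adjusted p = 0.953, limma). On the fold scale that interval ran from 0.917 to 1.18 under this fit.

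Heph, hephaestin, the copper ferroxidase that works beside ferroportin and is mutated in the sex-linked anaemia mouse, has 5 probes on the array. The brightest (ILMN_2734252) read 11.37, 11.24, 11.17, 11.47 and 11.36 on the ezetimibe arrays, against 11.15 to 11.71 with a median of 11.37 on the control arrays. Every ezetimibe value lay inside the control range. The difference was -0.05 ± 0.09 (SE), with a 95% interval of -0.24 to 0.15 and an adjusted p of 0.967. The second probe by brightness (ILMN_2726128) had a difference of -0.05 ± 0.09 (adjusted p = 0.962), and across the 13 arrays these bright probes had a Pearson's r of 0.82.

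The 3 dim Heph probes all had lower means in ezetimibe mice, by differences of -0.13 ± 0.16, -0.35 ± 0.15 and -0.47 ± 0.23 (SE) for ILMN_2748755, ILMN_2743476 and ILMN_1220453, with adjusted p of 0.937, 0.769 and 0.828 in limma. They lay near background: ILMN_2743476 was detected on 2 of 5 ezetimibe and 7 of 8 control arrays, and ILMN_1220453 on 2 of 5 ezetimibe and 6 of 8 control arrays. Both ILMN_2743476 and ILMN_1220453 reached the minimum of 5 arrays through the control group, in which they were detected more often, so their differences are conditioned on that choice and support nothing. The interval of the brightest probe ended at -0.24, short of the differences of ILMN_2743476 and ILMN_1220453. In the order given, the dim probes correlated with the brightest Heph probe at -0.06, 0.60 and 0.48 over the 13 arrays.

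**Figure D2:**
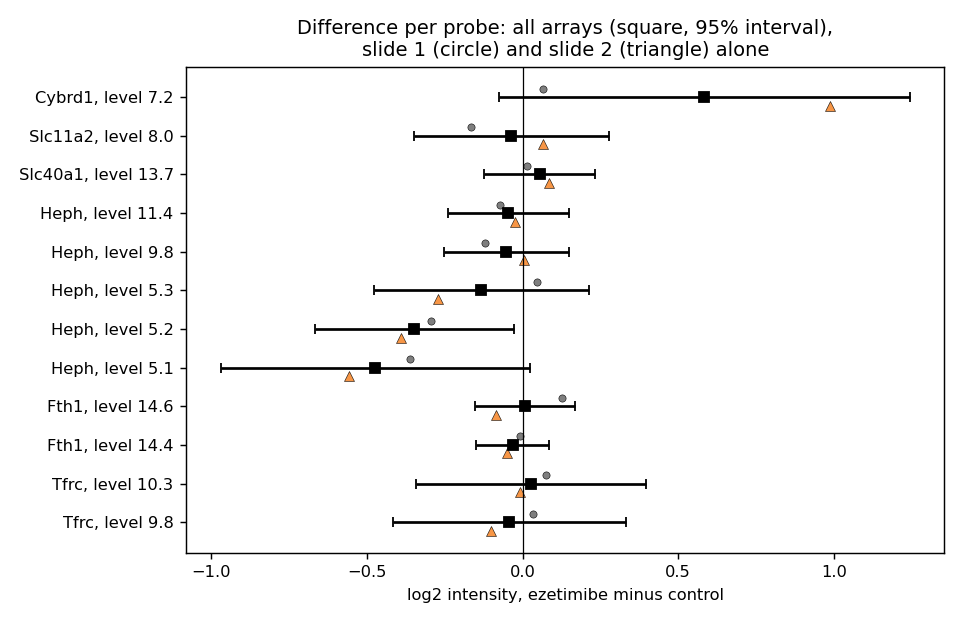
Difference in log2 intensity, ezetimibe minus control, for the 12 tested probes, labelled by gene and mean log2 level, with squares and bars for the fit to all 13 arrays and its 95% interval, circles for slide 1 alone and triangles for slide 2 alone. Of the 12 intervals, 11 include 0, and the exception is a dim Heph probe at -0.35.

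Fth1, the ferroxidase subunit of ferritin, which stores iron in the enterocyte until the cell is shed, differed little between mice. The brighter probe (ILMN_2876066) read 14.72, 14.72, 14.57, 14.54 and 14.64 on the ezetimibe arrays, against 14.35 to 14.86 with a median of 14.63 on the control arrays. The other probe (ILMN_2876071) averaged 14.42 ± 0.09 in ezetimibe mice (SD, n = 5) and 14.45 ± 0.06 in control mice (SD, n = 8). The differences were 0.01 ± 0.08 and -0.03 ± 0.05 (SE), with adjusted p of 0.995 and 0.96 in limma. The 2 Fth1 probes followed each other weakly, with an r of 0.28 over the 13 arrays. Before normalization the brighter probe stood at 74.3 to 96.8% of the brightest signal on its array, so little room was left above it. Fth1 has near-identical copies in the mouse genome, and the probes' specificity for it was not tested. Its partner, the light chain Ftl1, was detected by its probe on 0 of 13 arrays and was not tested.

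Tfrc, the transferrin receptor through which cells of the crypt and the basolateral side take up plasma iron, varied more than most tested probes. Its brighter probe (ILMN_2619848) read 10.65, 9.92, 10.69, 9.79 and 10.21 on the ezetimibe arrays, against 9.79 to 10.70 with a median of 10.30 on the control arrays. The groups overlapped over almost their whole range. The means were 10.25 ± 0.41 in ezetimibe mice (SD, n = 5) and 10.22 ± 0.30 in control mice (SD, n = 8), with a difference of 0.03 ± 0.17 (SE), a 95% interval of -0.34 to 0.40 and an adjusted p of 0.991 in limma. The second probe (ILMN_2860804) gave -0.04 ± 0.18 (adjusted p = 0.983), and the 2 probes followed each other over the 13 arrays with an r of 0.94.

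Mice of the same diet and slide differed from each other in Cybrd1 more than in most tested transcripts. The SD between arrays, after slide and diet were taken out, was 0.656 log2 units for the brighter Cybrd1 probe, at the 98.6th percentile of the tested probes and at the 98.5th among the 1001 probes nearest to it in level. How far this spread depended on background correction was not tested. The Tfrc probes stood at 0.361 and 0.364, at the 88.1st and 88.5th percentiles of all tested probes and the 93.5th and 93.6th of those nearest in level. Slc11a2 had an SD of 0.283, at the 70.0th percentile of all and the 82.0th of those nearest in level. The bright Heph probes had SDs of 0.168 and 0.166, at the 25.0th and 24.4th percentiles of all tested probes. They stood at the 64.8th and 52.4th of those nearest in level, so they did not vary less than most probes of their level. For Slc40a1 and Fth1, near the top of the intensity range, the comparison set was the 1001 brightest tested probes, most of them dimmer. Their percentiles in that set are therefore not among probes of like level. Slc40a1 had an SD of 0.156, at the 20.7th percentile of all tested probes and the 61.6th of that set. Of the Fth1 probes, one had an SD of 0.134 and the other, ILMN_2876071, of 0.072. These were at percentiles 13.2 and 0.572 of all tested probes and 47.8 and 3.30 of that set.

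**Figure D3:**
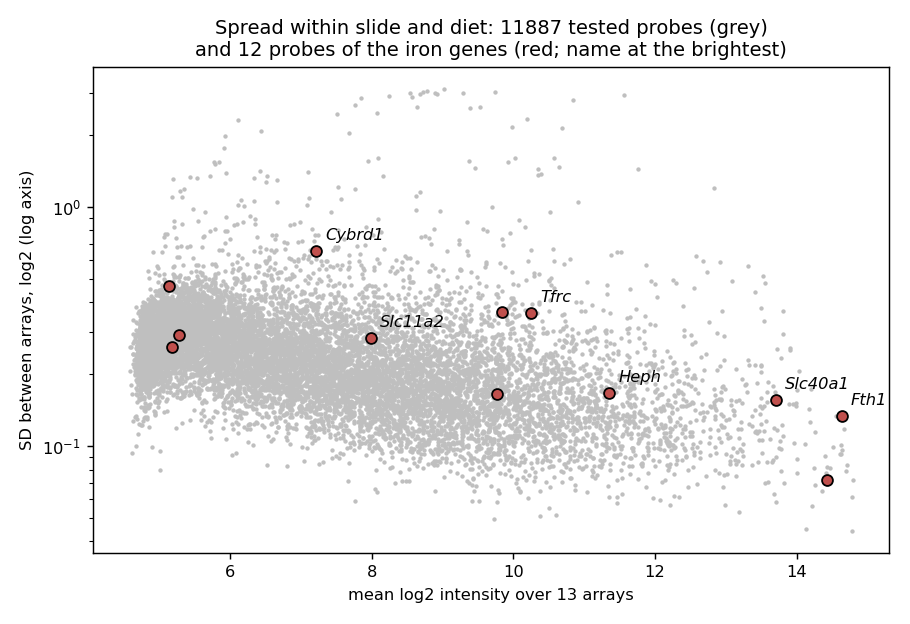
SD between arrays of the same slide and diet (log axis) against mean log2 intensity for the 11887 tested probes in grey and the 12 probes of the iron genes in red, with the name at the brightest probe of each gene. Cybrd1 lies high in the cloud at an SD of 0.656 and an Fth1 probe lies low at 0.072.

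After slide adjustment, with diet left in the values, the 6 genes did not vary together in a way that passed the test. Of 15 pairs, none had an adjusted p under 0.10, by Pearson's r or by Spearman's rho (permutation within slides, two-sided, 100000 resamples, lowest adjusted p 0.622 and 0.599). By rho, Heph and Fth1 passed when the array of Eze replicate 3 was left out (rho = -0.76, permutation, adjusted p = 0.0578), and Cybrd1 and Fth1 passed on slide 2 alone (rho = -0.92, permutation, adjusted p = 0.0938). At an unadjusted p under 0.05, 0 pairs were counted by r and 1 by rho. The strongest values were negative for Slc40a1 and Tfrc (r = -0.455, permutation p = 0.125, rho = -0.42, p = 0.166) and for Heph and Fth1 (r = -0.42, permutation p = 0.0692, rho = -0.56, p = 0.0399). Slc11a2 and Slc40a1 had an r of 0.41 (permutation p = 0.124) and a rho of 0.39 (p = 0.206), and Cybrd1 and Tfrc an r of 0.40 (p = 0.207) and a rho of 0.30 (p = 0.34).
Without the 2 arrays farthest from the median of the first gene, r was -0.10 for Slc40a1 and Tfrc, -0.55 for Heph and Fth1, 0.03 for Slc11a2 and Slc40a1, and 0.13 for Cybrd1 and Tfrc. On slide 1 and slide 2 alone r was -0.78 and -0.13 for Slc40a1 and Tfrc, and -0.70 and -0.37 for Heph and Fth1. With the other Fth1 probe and the second Heph probe by brightness, Heph and Fth1 had an r of 0.28. The pairs had the same sign on both slides in 7 of 15 cases. The pair of Cybrd1 and Fth1 had an r of 0.65 on slide 1 and -0.78 on slide 2, against 0.07 over both.

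**Figure D4:**
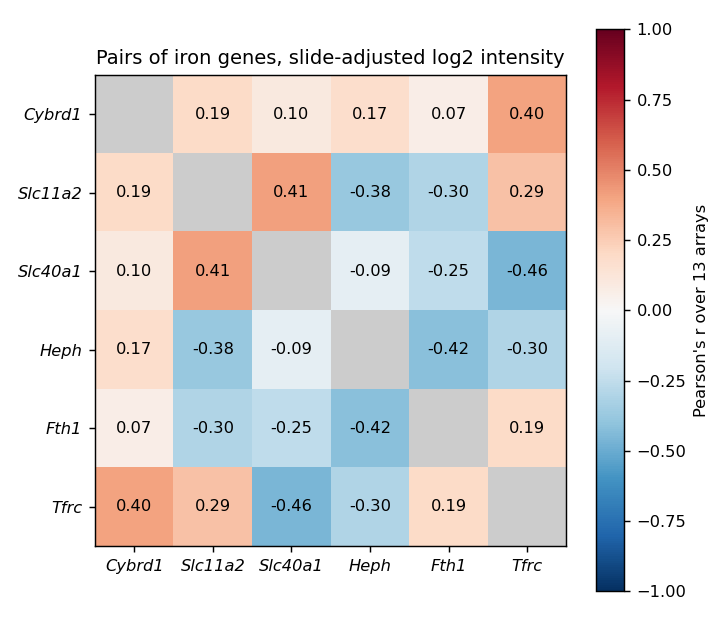
Pearson's r over 13 arrays for the 15 pairs of iron genes, from slide-adjusted log2 intensity of the brightest tested probe. Values run between -0.455 for Slc40a1 and Tfrc and 0.41 for Slc11a2 and Slc40a1.

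The genes were set beside the mean level of 9 marker lists on the same arrays, which made 54 relations, and 0 passed an adjusted p under 0.10 (5 had a permutation p under 0.05). Diet was left in these values, so a diet difference shared by a gene and a list enters r. Tfrc had its highest r with the crypt and cycling genes (Top2a, Mcm5, Mcm6, Ccnb1, Cdk1 and Olfm4), at 0.73 (permutation p = 0.00754, adjusted p = 0.164, rho = 0.78 with p = 0.00389). Slc40a1 had an r of -0.73 with the same genes (permutation p = 0.00912, adjusted p = 0.164, rho = -0.60 with p = 0.0412). Within slides 1 and 2 these were 0.83 and 0.66 for Tfrc, and -0.84 and -0.59 for Slc40a1; without the 2 arrays farthest from the median of the list they were 0.55 and -0.49. Slc11a2 had an r of 0.72 with the smooth muscle genes (permutation p = 0.00187, adjusted p = 0.101, rho = 0.76 with p = 0.00271), of 0.76 and 0.90 within slides 1 and 2, and of 0.49 without the 2 farthest arrays. Heph and Fth1 had r of 0.66 and -0.49 with the distal intestine genes (permutation p = 0.0355 and 0.0184, adjusted p = 0.383 and 0.249), and rho of 0.71 and -0.62 (p = 0.0119 and 0.0188). Within slides 1 and 2 these r were 0.21 and 0.77 for Heph and -0.72 and -0.62 for Fth1, and without the 2 farthest arrays 0.67 and -0.39. Cybrd1 had its highest r with the red blood cell genes, at 0.51 (permutation p = 0.0849, adjusted p = 0.509, rho = 0.49 with p = 0.1), with 0.05 on slide 1 and 0.83 on slide 2. Cybrd1 and this list both had higher means in ezetimibe mice, the list at 7.57 against 6.92 in control mice. Of the tested genes of this list, only Hba-a1 was detected on every array. The crypt and cycling genes had a mean level of 7.42 to 8.31 on the ezetimibe arrays and of 7.60 to 8.30 on the control arrays, and the smooth muscle genes of 8.77 to 9.52 on the ezetimibe arrays and of 8.85 to 9.40 on the control arrays. Beyond these correlations, the part of these cell types in the values of the iron genes was not tested.

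Of 8974 genes, those most like each iron gene over the 13 arrays, after slide and diet were taken out, were named by rank alone; with so many genes compared, their r is given without a test. For Cybrd1 these were Phf23 (0.865), the mitochondrial fission GTPase Dnm1l (0.855) and the endoplasmic reticulum shaping protein Reep5 (0.848). Slc11a2 was most like the ether lipid enzyme Agps (0.911), the mannosyltransferase Pigz (0.888) and the myosin light chain Myl6 (0.882). For Slc40a1 they were Tuft1 (0.956), Fbrsl1 (0.90) and LOC100046264 (0.90). Heph was most like Ahcyl1 (0.934), the complement regulator Cd55 (0.929) and the sterol sensor Insig1 (0.929). Insig1 itself was higher in ezetimibe mice by 0.995 on the log2 scale (adjusted p = 0.0142), while Heph differed by -0.05; the other 17 genes of these 6 lists did not pass the threshold. Fth1 was most like LOC386486 (0.910), the DNA repair enzyme Alkbh2 (0.899) and Rbfa (0.861), and Tfrc most like the fucose kinase Fcsk (0.947), LOC677205 (0.928) and Lrig1 (0.917).

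The wider iron and metal genes were described through 8 lists, and 0 of their tested members passed the threshold in either direction (limma), beside 0.252% of all tested probes. Of their 74 tested genes 4 had an unadjusted p under 0.05, or 5.41%, near the 6.18% of all tested probes, and these were Flvcr2, Slc25a37, Egln3 and Atp7a. Haem handling held the largest difference. Flvcr2, a membrane transporter of the FLVCR family that has been described as a haem importer and a choline transporter, read 6.72, 7.03, 6.66, 7.49 and 7.57 on the ezetimibe arrays, against 5.45 to 6.86 with a median of 5.96 on the control arrays. The means were 7.10 ± 0.42 in ezetimibe mice (SD, n = 5) and 6.08 ± 0.46 in control mice (SD, n = 8), and 3 of 5 ezetimibe values were above every control. The difference was 1.01 ± 0.23 (SE), with a 95% interval of 0.52 to 1.50 and an adjusted p of 0.139, and it was 0.69 on slide 1 and 1.27 on slide 2. It passed the threshold under 3 of the other settings: median scaling, slide as a random block and the deposited processed values without a slide term (adjusted p of 0.0532, 0.0974 and 0.0689), and when the array of Control replicate 3 was left out (0.0351). The Flvcr2 difference was 1.05 ± 0.23 (SE) with median scaling and 1.02 ± 0.22 with slide as a random block. With the deposited processed values without a slide term it was 0.25 ± 0.05, so its size depended on the processing. Haem oxygenase Hmox1 had a difference of -0.34 ± 0.22 (adjusted p = 0.861) and was detected on 2 of 5 ezetimibe and 6 of 8 control arrays. It reached the minimum of 5 arrays through the control group, so this difference is conditioned on that choice and supports nothing. The median over the 8 tested genes was -0.02, beside -0.00105 over all tested probes.

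Among 11 genes of mitochondrial iron use the median difference was -0.01, and 5 were above 0. Slc25a37, mitoferrin, which brings iron into mitochondria, averaged 8.07 ± 0.12 in ezetimibe mice (SD, n = 5) and 7.73 ± 0.17 in control mice (SD, n = 8), and 4 of 5 ezetimibe values were above every control. Its difference of 0.34 ± 0.10 (SE) was 0.31 on slide 1 and 0.36 on slide 2, with an unadjusted p of 0.004 and an adjusted p of 0.389 in limma. The scaffold protein Iscu had a difference of -0.08 ± 0.07 (adjusted p = 0.893).

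The HIF list, which holds the pathway and its targets, had a median difference of 0.11 over 13 tested genes, of which 11 were above 0, against 49.7% of all tested probes. On slide 1 the median was -0.01 with 6 of 13 above 0, and on slide 2 it was 0.14 with 11 of 13. Egln3, a prolyl hydroxylase that HIF itself induces, averaged 7.75 ± 0.35 in ezetimibe mice (SD, n = 5) and 7.26 ± 0.34 in control mice (SD, n = 8), with a difference of 0.48 ± 0.18 (SE) and an adjusted p of 0.732. The glucose transporter Slc2a1 had a difference of 0.25 ± 0.13 (adjusted p = 0.829).

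The remaining iron lists had medians near that of all probes. The 9 tested genes of the transferrin cycle and other iron transport were all above 0, by 0.01 to 0.24 with a median of 0.04, led by the endolysosomal channel Mcoln1 (0.24 ± 0.17, adjusted p = 0.875) and the sorting nexin Snx3 (0.15 ± 0.13, adjusted p = 0.909). On slide 2 alone 3 of 9 were above 0. Snx3 was detected on 2 of 5 ezetimibe and 4 of 8 control arrays. Cp, also in this list, was detected on 3 of 5 and 3 of 8, so both lay near background. The 5 iron chaperones and ferritin-turnover genes had a median of 0.04, with the ferritin cargo receptor Ncoa4 at 0.15 ± 0.15 (adjusted p = 0.921) and Bola2 at -0.12 ± 0.14 (adjusted p = 0.931). The 5 genes of iron sensing had a median of 0.05. Aco1, the iron regulatory protein that is an aconitase when iron is plentiful, had a difference of 0.27 ± 0.17 (adjusted p = 0.861). In the hepcidin and BMP list the median over 8 genes was 0.03, Neo1 had a difference of 0.15 ± 0.09 (adjusted p = 0.849) and the BMP target Id1 one of -0.17 ± 0.11 (adjusted p = 0.861). Hamp, the hormone that removes ferroportin, was detected on 0 of 13 arrays. The hepcidin gene Hamp2 was detected on 4 of 5 ezetimibe and 2 of 8 control arrays. It had the largest difference of that list, 0.51 ± 0.41 (adjusted p = 0.9, limma), which is conditioned on the detection filter.
The 16 tested genes of zinc, copper, calcium and other metals had a median of 0.06. The copper exporter Atp7a had a difference of 0.33 ± 0.15 (adjusted p = 0.784) and the metallothionein Mt2 one of 0.48 ± 0.25 (adjusted p = 0.833), which was 1.12 on slide 1 and -0.02 on slide 2.

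**Figure D5:**
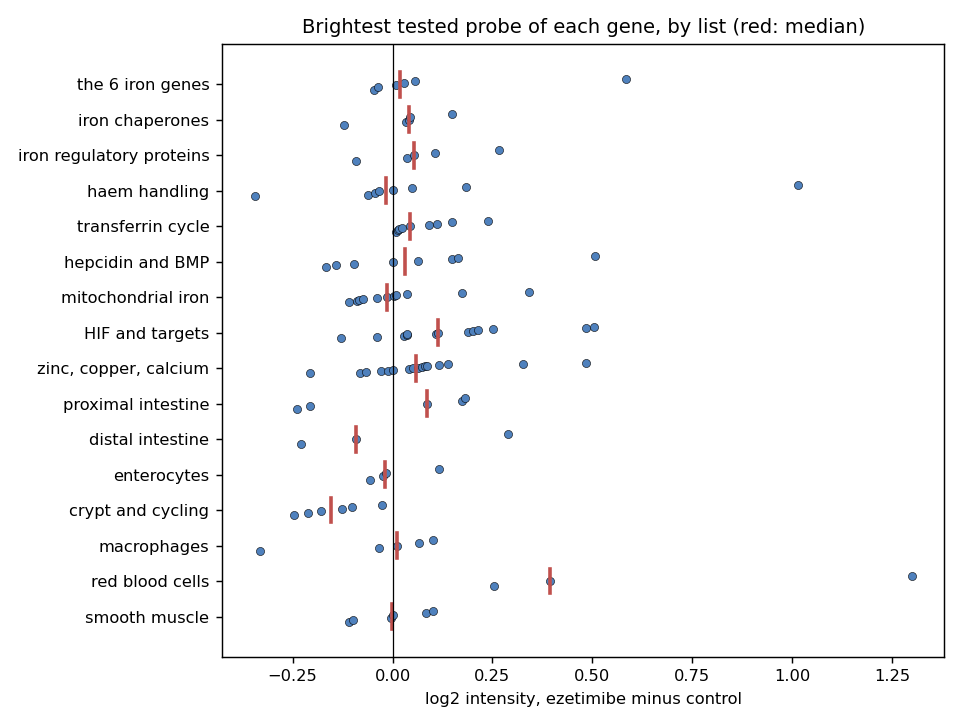
Difference in log2 intensity, ezetimibe minus control, of the brightest tested probe of each gene in 16 lists, with a red line at each list's median; the pancreas and stomach lists, whose levels ranged widely between mice, are left out. Hba-a1 at 1.30 and Flvcr2 at 1.01 lie farthest to the right.

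Cell type markers beside these values gave 0 tested members past the threshold as well (limma), beside 0.252% of all tested probes. Of the 47 tested marker genes 2 had an unadjusted p under 0.05, or 4.26%, against 6.18% of all tested probes, and these were Cd68 and Hba-a1. The 6 tested crypt and cycling genes were all below 0, with a median of -0.15, among them Mcm6 (-0.18 ± 0.12, adjusted p = 0.863) and Top2a (-0.21 ± 0.18, adjusted p = 0.903); on slide 1 alone 4 of 6 were above 0. The 4 enterocyte genes had a median of -0.02, with Vil1 at 0.12 ± 0.08 (adjusted p = 0.867) and Anpep at -0.06 ± 0.18 (adjusted p = 0.98). The 5 proximal genes had a median of 0.09, with Pdx1 at 0.18 ± 0.09 (adjusted p = 0.829) and Gip at -0.24 ± 0.13 (adjusted p = 0.838), and the 3 distal genes a median of -0.09, with Gcg at -0.23 ± 0.21 (adjusted p = 0.912) and Pyy at 0.29 ± 0.27 (adjusted p = 0.913). The 5 macrophage genes had a median of 0.01, with Cd68 at -0.33 ± 0.15 (adjusted p = 0.777) and Csf1r at 0.10 ± 0.18 (adjusted p = 0.961). The 6 smooth muscle genes had a median of -0.0014, with Cnn1 at -0.11 ± 0.13 (adjusted p = 0.934) and Des at -0.10 ± 0.14 (adjusted p = 0.948). Cnn1 was detected on 2 of 5 ezetimibe and 7 of 8 control arrays, so its difference, like that of Hmox1, is conditioned on the detection filter.
The 3 tested red blood cell genes were above 0, with Hba-a1 at 1.30 ± 0.30 (adjusted p = 0.146) and the erythroid haem enzyme Alas2 at 0.39 ± 0.19 (adjusted p = 0.807), and their mean level was 7.04 to 7.79 on the ezetimibe arrays and 6.40 to 7.42 on the control arrays. Hba-a1 passed the threshold when the array of Eze replicate 4 or of Control replicate 5 was left out (adjusted p of 0.0188 and 0.07). Hba-a1 was detected on all 13 arrays, but Alas2 on 5 of 5 ezetimibe and 5 of 8 control arrays, and Hbb-b1 on 2 of 5 and 4 of 8. The red cell membrane genes Slc4a1 and Epb42 were detected on 1 and 0 of 13 arrays. All 11 pancreatic genes were above 0 with a median of 0.55, but on slide 1 alone 2 of 11 were above 0 with a median of -0.26, and on slide 2 alone 11 of 11 with a median of 1.41. Leaving out 1 array put that median between -0.39 (without Eze replicate 4) and 1.62 (without Eze replicate 1). Prss2 stood at 0.69 ± 0.71 (adjusted p = 0.921) and Cel at 0.77 ± 1.33 (adjusted p = 0.96). The 4 stomach and Brunner's gland genes had a median of 0.45, with Gkn3 at 0.74 ± 1.08 (adjusted p = 0.951) and Tff2 at 0.84 ± 1.29 (adjusted p = 0.953), and their median was 2.45 on slide 1 and -1.13 on slide 2. With the pancreas level as a further term, chosen after seeing the data, the difference was 0.55 ± 0.31 for Cybrd1, -0.06 ± 0.14 for Slc11a2, 0.05 ± 0.09 for Slc40a1 and -0.05 ± 0.09 for the brightest Heph probe, and it was 0.02 ± 0.08 and 0.04 ± 0.18 for the brightest probes of Fth1 and Tfrc; no iron gene probe passed the threshold. No fit with the stomach or red blood cell genes as a term was made.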

How the data were processed

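Per the file headers, the deposited unnormalized table holds for every probe and array a mean bead intensity, on a linear scale, together with its detection p-value; the exporting software is not stated. A second deposited table holds processed intensities that the authors, per the series' design text, had quantile-normalized and batch-corrected with Combat; it served as an alternative.

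Starting from the unnormalized table, neqc (limma 3.58.1 under R 4.3.3) estimated the background by normexp with the help of the detection p-values, added an offset of 16, equalised quantiles and took log2. Testing was limited to the 11887 probes (46.3%) whose detection p-value was below 0.05 on 5 or more of the 13 arrays. The model per probe had terms for slide and diet (lmFit, eBayes with an intensity trend); past the threshold means a Benjamini-Hochberg adjusted p under 0.10 over all tested probes. Array names gave the slides. Lists used the brightest tested probe of each gene and were described by counts and medians only. Correlations were tested by permuting within slides (100000 resamples, two-sided; Python 3.11.15, numpy 2.4.6, pandas 2.3.3) and adjusted over the 15 pairs or the 54 marker relations. The scripts were tested on simulated data.

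A RefSeq gene table of GRCm38.p6 updated the symbols: 20439 probes had a current one, 4135 were renamed, 1103 were left as deposited and 20 showed a date and stayed unnamed. Locations and upstream sequences are RefSeq's, since the table gives no coordinates and no build.

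The members, lists and tests were chosen with earlier results of these data known. Named genes were all probes of the 6 genes and, for each of the 6, the 3 genes most like it. For each list they were up to 3 members past the threshold or, where none passed, the 2 with the smallest p. Others (Ftl1, Hamp, Hamp2, Hmox1, Cp, Hbb-b1, Fabp6, Slc10a2, Nts, Gata4, Slc4a1, Epb42 and the rest of the crypt list) were named after their values were seen. Some genes that the rule names are not reported here. Alternatives covered background correction, normalization, filter, slide, position, spread estimation, replicate number and leaving out each array.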

Additional observations from a re-analysis of the deposited data

How the results depend on the processing

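None of the 12 tested probes of the iron genes passed the threshold under any setting tried, and 0 of the 15 pairs did by Pearson's r. By Spearman's rho 1 pair did on slide 2 alone (Cybrd1 and Fth1) and 1 without Eze replicate 3 (Heph and Fth1). The counts that changed were those over other probes. Past the threshold, all tested probes numbered 30, against 17 without a slide term, 6 on slide 1 alone, 10 on slide 2 alone, and 20 to 45 when 1 array was left out. Of the list genes 0 passed in the reported fit, 2 with median scaling, 2 and 1 with the deposited processed values without and with a slide term, 1 with slide as a random block, and 0 to 1 when 1 array was left out; each of these was Flvcr2, Hba-a1 or both. Hba-a1 also passed with array weights (adjusted p = 0.0926), with a replicate block (0.0958) and without the arrays highest in pancreas markers (0.00631). Deviations of same-numbered arrays correlated at 0.116, -0.131, 0.047, 0.365 and -0.42. Differently numbered arrays were not set beside them, so these values cannot show whether replicate numbers pair the samples. Blocking on the replicate number, 23 probes and 0 probes of the iron genes passed, and the differences were 0.0039 and 0.0034 for the bright Heph probes (ILMN_2734252 and ILMN_2726128), 0.039 for Fth1 ILMN_2876071, and 0.0032 and -0.053 for Tfrc ILMN_2860804 and ILMN_2619848.

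The small differences turned sign under some settings. Median scaling, which moved the median of all tested probes to 0.088, gave 0.10 for Slc11a2, 0.11 and 0.10 for the bright Heph probes, 0.094 for Fth1 ILMN_2876071 and 0.11 for Tfrc ILMN_2860804. Slide 1 alone gave 0.047 for Heph ILMN_2748755 and 0.034 for Tfrc ILMN_2860804. Slide 2 alone gave 0.064 for Slc11a2, 0.0032 for Heph ILMN_2726128, -0.084 for Fth1 ILMN_2876066 and -0.0092 for Tfrc ILMN_2619848. Position as a covariate gave 0.10 for Slc11a2, -0.00050 for Fth1 ILMN_2876066 and 0.081 for Tfrc ILMN_2860804. Array weights gave -0.032 for Tfrc ILMN_2619848. Leaving out the array with the highest pancreas markers in each group, a setting chosen after seeing the data, gave 0.035 for Slc11a2 and 0.12 for Tfrc ILMN_2860804. With 1 array left out the ranges were -0.21 to 0.053 for Slc11a2, -0.019 to 0.15 for Slc40a1, -0.084 to 0.014 and -0.087 to 0.0065 for the bright Heph probes, -0.0575 to 0.0013 and -0.030 to 0.040 for Fth1 ILMN_2876071 and ILMN_2876066, and -0.17 to 0.085 and -0.098 to 0.14 for Tfrc ILMN_2860804 and ILMN_2619848. Cybrd1 kept its sign, at 0.07 to 1.10 over the settings and 0.40 to 0.73 with 1 array left out. Among the pairs with the strongest r, that of Slc40a1 and Tfrc turned to 0.21 with median scaling. For Heph and Fth1 r turned to 0.28 with the second-brightest probe (chosen after seeing the data). For Slc11a2 and Slc40a1 it turned to -0.19 in the control arrays alone. Median scaling also turned r to 0.58 for Slc40a1 and Heph, 0.39 for Slc11a2 and Heph, 0.28 for Heph and Tfrc, and 0.09 for Slc40a1 and Fth1. With that scaling r was 0.71 for Slc11a2 and Slc40a1 (permutation p = 0.00732, adjusted p = 0.11). The r of the pairs thus depended on the normalization. Sign changes of the weaker pairs under other settings are not listed. The cause of these changes was not tested. The 3 dim Heph probes gave no value when detection at p under 0.01 on all arrays was required.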
